A study of Homo sapiens with 8 samples.

Results

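The genes described here are the core set of G2 and mitosis genes: the cyclins and kinases that start mitosis, the factors that transcribe them, the machinery that attaches, checks and separates chromosomes, and the proteins that divide the cell. They were chosen by name, from a list of 56 symbols, and no kinesin motor other than CENPE was included. The choice was made with earlier results of these data known, so the counts set beside all genes are a description. Of the listed genes, 55 had a row among the 18787 gene symbols of the table, and CKS1B was not analysed here. RNA was sequenced from T98 and U87, both established human glioblastoma cell lines, at 72 h after siRNA transfection with Lipofectamine RNAiMAX. The 4 groups were T98 cells with LKB1 siRNA, T98 cells with control siRNA, U87 cells with LKB1 siRNA and U87 cells with control siRNA, with 2 libraries in each. LKB1 is the protein kinase encoded by STK11, which activates AMPK and its related kinases. The labels name neither the siRNA sequences nor whether the libraries of a group came from separate transfections, so the p-values cover the spread among these libraries alone, which may be technical. The column headers place 1 library of each group on lane 2 and the other on lane 4 (T98) or lane 5 (U87).

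Entry into mitosis is driven by CDK1 bound to cyclin A or cyclin B, and is helped by the CDC25 phosphatases, PLK1 and the Aurora kinases. The spindle checkpoint holds CDC20 back until every kinetochore is attached. CDC20 then directs the anaphase-promoting complex to destroy securin and cyclin B, and separase cuts the cohesin that holds sister chromatids together. Many of these genes are transcribed in G2 by B-MYB (MYBL2) and FOXM1 together with the MuvB core. They are kept silent in resting cells by the DREAM complex, which contains the same core. MuvB binds a short promoter motif called CHR (cell cycle genes homology region), and the factor NF-Y binds CCAAT boxes upstream of it. Transcripts of this set are known as markers of dividing cells in glioblastoma as in other tumours.

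The promoters of 8 genes are shown because the findings below turn on these genes and because the genes share these motifs to different degrees. The sequences are from RefSeq (GRCh38.p14), 5′ to 3′ along each gene, and cover the 100 bases before the annotated start. Capitals mark TTTGAA (the CHR letters) or CCAAT, on either strand, so that TTCAAA and ATTGG are capitals too.
CCNB2: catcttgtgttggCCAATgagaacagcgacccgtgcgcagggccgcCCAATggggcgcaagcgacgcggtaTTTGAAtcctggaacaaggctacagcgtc
PLK1: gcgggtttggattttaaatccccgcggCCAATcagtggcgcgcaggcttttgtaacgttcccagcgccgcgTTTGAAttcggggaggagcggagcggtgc
CENPA: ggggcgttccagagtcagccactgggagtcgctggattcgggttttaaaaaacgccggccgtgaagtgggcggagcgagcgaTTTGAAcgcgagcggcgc
CDC20: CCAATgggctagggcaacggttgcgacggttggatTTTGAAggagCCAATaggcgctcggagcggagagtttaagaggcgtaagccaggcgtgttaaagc
HMMR: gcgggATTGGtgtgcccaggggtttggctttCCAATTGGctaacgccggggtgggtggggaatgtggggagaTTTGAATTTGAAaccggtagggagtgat
CCDC99: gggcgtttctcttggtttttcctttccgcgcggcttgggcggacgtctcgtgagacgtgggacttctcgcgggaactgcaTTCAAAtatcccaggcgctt
PRC1: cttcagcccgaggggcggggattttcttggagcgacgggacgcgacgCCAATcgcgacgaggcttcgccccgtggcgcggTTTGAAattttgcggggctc
CCNB1: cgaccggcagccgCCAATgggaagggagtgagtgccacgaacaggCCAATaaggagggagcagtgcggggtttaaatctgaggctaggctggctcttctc
The stretches lie at chr15:59105046-59105145 (CCNB2, plus strand), chr16:23678789-23678888 (PLK1, plus), chr2:26785956-26786055 (CENPA, plus), chr1:43358881-43358980 (CDC20, plus), chr5:163460532-163460631 (HMMR, plus), chr5:169583673-169583772 (CCDC99, now SPDL1, plus), chr15:90994536-90994635 (PRC1, minus) and chr5:69167050-69167149 (CCNB1, plus). In CCNB2 and PLK1 the CHR letters began at position -29 relative to the start, and in PRC1 at -20. HMMR holds 2 copies side by side and also a CCAAT box that overlaps its own reverse form. CCNB1 holds 2 CCAAT boxes and no TTTGAA in the 300 bases searched.

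The table of promoters gave 300 bases (250 before the start and 50 after it) for 48 of the 55 genes. TTTGAA was found on either strand in 31 of the 48 (64.6%), against 12.1% of 15843 protein-coding promoters. CCAAT was found in 32 of the 48 (66.7%), against 36.4% of all promoters. Both motifs occurred together in 22 of the 48 (45.8%), against 5.02% of all. A TTTGAA that began between 60 bases before and 20 bases after the start was present in 22 of the 48 (45.8%), against 2.84% of all. The E2F letters TTTCCCGC were present in 2 of the 48 (4.17%), against 2.18% of all. A match is a run of letters and is not evidence of binding.

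The libraries held 25234334 to 38031734 reads, and the least covered of the 55 genes had 82 reads in its lowest library. STK11 (chr19:1205798-1228434 on hg19, plus strand) checks the labels: its values were 339.9 and 588 in T98 LKB1 siRNA libraries, against 1999 and 2041 in T98 control siRNA libraries, and 361 and 385 in U87 LKB1 siRNA libraries, against 2445 and 2041 in U87 control siRNA libraries. The log2 fold changes of STK11 were -2.17 (SE 0.20, limma adjusted p = 0.00254) in T98 and -2.58 (SE 0.20, limma adjusted p = 0.00195) in U87. Without a lane term, the limma adjusted p of STK11 was 0.0824 in T98 and 0.0466 in U87. Of the 7 glioma and glial markers, VIM and CD44 were abundant in every library. GFAP reached at most 50.7, and S100B and SOX2 did not exceed 3.48 and 2.89. NES had 1361 to 2073 in U87 libraries and 16.2 to 123 in T98 libraries, and OLIG2 had 25.5 to 70.4. Of the epithelial markers, KRT18 had 2190 to 3844 in T98 libraries and 29.6 to 71.1 in U87 libraries. KRT8 had 122 to 391, and EPCAM, CDH1 and KRT5 reached at most 63.3, 24.8 and 13.8. Among endothelial markers, KDR had 150 to 269 in U87 libraries and at most 2.21 in T98 libraries. PECAM1 and CDH5 reached at most 28.9 and 18.8. Of the leukocyte markers, PTPRC and CD3E reached at most 9.63 and 0.961. CD68, a lysosomal protein abundant in macrophages, had 12851 and 22934 in U87 LKB1 siRNA libraries, against 12020 and 19484 in U87 controls, and 538 and 614 in T98 LKB1 siRNA libraries, against 708 and 1125 in T98 controls. Its part in the results was not tested. Values are the authors' deposited normalised signal per gene. Fold changes are on the scale of log2(value + 1), and adjusted p-values come from limma-trend with a lane term, Benjamini-Hochberg adjusted over 14282 tested genes, with 0.05 as the threshold for a call. All 55 genes reached the minimum for testing, a value of 10 in 2 libraries.

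In U87 cells, 52 of the 55 genes fell after LKB1 siRNA and none rose, where 5.91% of all 14282 genes fell and 5.29% rose. The median log2 fold change of the 55 genes was -1.35, which is 39.3% of the control level, against a median of -0.002 for all genes. The 55 values ran from -2.22 (HMMR) to -0.03 (CDCA2), and their quartiles were -1.50 and -1.14. Both LKB1 siRNA libraries were below both control libraries for 53 of the 55 genes, as for 20.2% of all genes. The difference was below 0 in both lanes for 54 of the 55 genes, as for 37.5% of all genes, and had opposite signs in the lanes for 1 gene, as for 26.5% of all genes. A fall of more than 1 log2 unit in both lanes was seen in 40 of the 55 genes, as in 2.05% of all genes. Summed over the 55 genes, the deposited values made up 0.217% and 0.241% of the total in the LKB1 siRNA libraries, against 0.538% and 0.587% in the control libraries. In a whole culture, fewer cells in G2 or mitosis and less transcript per cell cannot be told apart.

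The calls rest on the lane term and on all 4 U87 libraries. Without a lane term, the fold changes were the same and 1 of the 55 genes was called in U87 (NUSAP1), as were 0.028% of all genes as lower. At an unadjusted p under 0.05 with the lane term, 54 of the 55 genes were lower, as were 14.4% of all genes, and none was higher, as were 13.2%. Leaving out any single U87 library left 0 calls in U87, among these genes and among all genes, since the spread then came from T98 alone. The median fold change over the 55 genes was -1.24 to -1.50 in these fits.

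**Figure D1:**
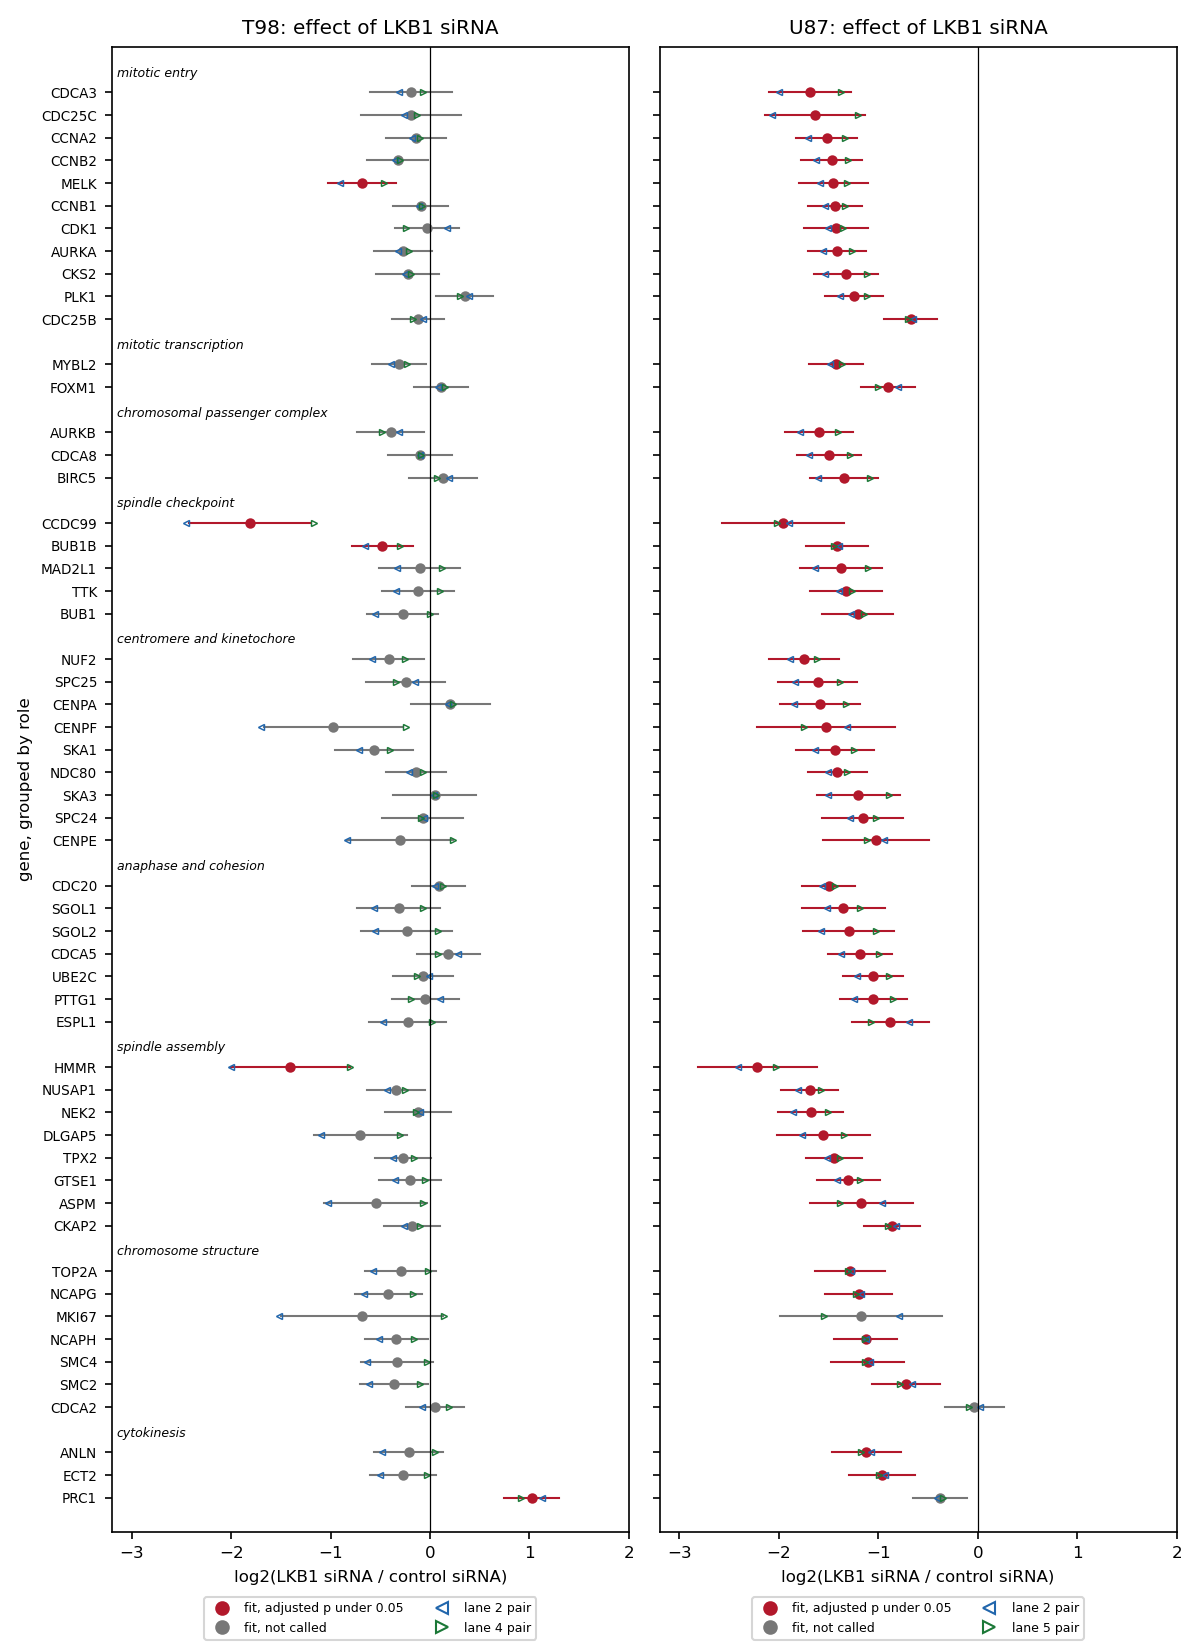
Log2 fold change of each gene after LKB1 siRNA against control siRNA in T98 (left) and U87 (right), grouped by role and sorted by the U87 value. Circles with bars are the fit and its 95% confidence interval (red, adjusted p under 0.05), and triangles are the single differences within each lane. In U87 the 52 red values lie left of 0 and CDCA2 lies at -0.03, and in T98 most values lie near 0 with CCDC99 and HMMR far to the left and PRC1 to the right.

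All 11 genes of mitotic entry fell in U87, with a median of -1.43. CDCA3, which helps to degrade the CDK1 inhibitor WEE1, had the largest fall of the group. Its values were 350.1 and 389 with LKB1 siRNA and 1399.9 and 1014 with control siRNA, a log2 fold change of -1.69 (SE 0.18, limma adjusted p = 0.00267). The LKB1 siRNA libraries were both far below the controls. CCNB1, cyclin B1, had 2753 and 2271 with LKB1 siRNA, against 7989 and 5718 with control siRNA, a change of -1.43 (SE 0.12, limma adjusted p = 0.00195). PLK1, the kinase that activates CDC25C and matures centrosomes, had 1502 and 1798 with LKB1 siRNA, against 3916 and 3879 with control siRNA, a change of -1.25 (SE 0.12, limma adjusted p = 0.00240). In both genes the groups were well apart in each lane. CDK1 itself was at 37.1% of its control level, and CCNA2 (cyclin A2), CCNB2 (cyclin B2), AURKA, CKS2, MELK and CDC25C lay between 32.1% and 39.9%. CDC25B, which dephosphorylates CDK1 at the centrosome, had the smallest fall of the group. Its values of 2149.5 and 1362 with LKB1 siRNA, against 3374 and 2215 with control siRNA, gave a change of -0.68 (SE 0.11, limma adjusted p = 0.0108).

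Both transcription factors of the G2 programme fell in U87. MYBL2, which encodes B-MYB, had 2738 and 2303 with LKB1 siRNA, against 7680.5 and 5939 with control siRNA, a change of -1.43 (SE 0.12, limma adjusted p = 0.00195). FOXM1 had 4241 and 2562 with LKB1 siRNA, against 7402 and 5127 with control siRNA, a change of -0.90 (SE 0.12, limma adjusted p = 0.00445). The lanes of FOXM1 differed, but within each lane the LKB1 siRNA library was the lower one. FOXM1 shares 898 bases with RHNO1 on the opposite strand, and the kit does not mark strand, so reads of the pair cannot be told apart there.

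The 3 listed subunits of the chromosomal passenger complex, which corrects faulty attachments and starts cleavage, fell in U87. AURKB, its kinase, had 397 and 577 with LKB1 siRNA, against 1371 and 1530.3 with control siRNA, a change of -1.60 (SE 0.15, limma adjusted p = 0.00195). BIRC5 (survivin), which docks the complex on centromeric histone, had 1894 and 1822 with LKB1 siRNA, against 5768 and 3876 with control siRNA, a change of -1.35 (SE 0.15, limma adjusted p = 0.00296). The groups did not overlap in either gene. CDCA8 (borealin), which binds survivin, had 717 and 835 with LKB1 siRNA, against 2328 and 2037 with control siRNA, a change of -1.49 (SE 0.14, limma adjusted p = 0.00196).

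The 5 spindle checkpoint genes fell in U87 with a median of -1.38. CCDC99 (Spindly), at chr5:169010638-169031781 on hg19, recruits dynein to kinetochores and fell most. Its values were 724 and 578 with LKB1 siRNA and 2702 and 2350.3 with control siRNA, a change of -1.96 (SE 0.26, limma adjusted p = 0.00503), or 25.7% of control. Each LKB1 siRNA library was far below each control. BUB1B (BUBR1), which inhibits the anaphase-promoting complex, had 703 and 888 with LKB1 siRNA, against 1844 and 2415 with control siRNA, a change of -1.42 (SE 0.13, limma adjusted p = 0.00208). The smallest fall was that of BUB1, the kinase that marks centromeres, with 1309.6 and 1249 with LKB1 siRNA, against 3177 and 2752 with control siRNA, a change of -1.21 (SE 0.15, limma adjusted p = 0.00424). MAD2L1, which binds CDC20, and TTK, the kinase at the head of the checkpoint, changed by -1.38 and -1.33. The BUB1 row overlaps RGPD5 on the opposite strand and the BUB1B row overlaps PAK6, so part of their reads is uncertain. Rows of CCNA2, PLK1, SKA3, NCAPG and ANLN likewise overlap a gene on the opposite strand.

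The 9 centromere and kinetochore genes fell in U87 with a median of -1.44. NUF2 and NDC80 form the microtubule-binding arm of the NDC80 complex. NUF2 had 251 and 397 with LKB1 siRNA, against 930.2 and 1215 with control siRNA, a change of -1.75 (SE 0.15, limma adjusted p = 0.00195). NDC80 had 834 and 662 with LKB1 siRNA, against 2370.1 and 1649 with control siRNA, a change of -1.41 (SE 0.13, limma adjusted p = 0.00195). The other arm of that complex, SPC24 and SPC25, changed by -1.16 and -1.61, so all 4 subunits fell. CENPA, the histone H3 variant that marks centromeres, had 213 and 208 with LKB1 siRNA, against 768 and 522 with control siRNA, a change of -1.59 (SE 0.17, limma adjusted p = 0.00290). SKA1 and SKA3, which keep kinetochores on shrinking microtubules, changed by -1.44 and -1.20. CENPF, a large kinetochore protein that accumulates in G2, changed by -1.53 with a wide SE of 0.30. CENPE, a kinetochore motor that aligns chromosomes, had the smallest fall, with 1014 and 991 with LKB1 siRNA, against 1950.0 and 2140.3 with control siRNA, a change of -1.03 (SE 0.23, limma adjusted p = 0.0295).

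The 7 genes of anaphase and sister chromatid cohesion fell in U87 with a median of -1.18. CDC20 (chr1:43824626-43828873 on hg19), the activator of the anaphase-promoting complex, had 1136 and 1091 with LKB1 siRNA, against 3366 and 2946 with control siRNA, a change of -1.50 (SE 0.11, limma adjusted p = 0.00195). Its pairs of libraries agreed closely within each group. CDCA5 (sororin), which stabilises cohesin on chromatin, had 898 and 1370.1 with LKB1 siRNA, against 2328 and 2730.3 with control siRNA, a change of -1.18 (SE 0.14, limma adjusted p = 0.00352). ESPL1 (separase) had 781 and 965 with LKB1 siRNA, against 1262 and 2026 with control siRNA, a change of -0.88 (SE 0.17, limma adjusted p = 0.0166). It was the smallest fall of the group, although the groups did not overlap. PTTG1 (securin), the inhibitor of separase, was at 48.3% of control and UBE2C, the ubiquitin-conjugating enzyme of the anaphase-promoting complex, at 48.1%. The shugoshins SGOL1 and SGOL2, which protect centromeric cohesin, were at 39.2% and 40.6%. PTTG1 has close copies in the genome, so its reads may not all be its own.

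The 8 spindle assembly genes fell in U87 with a median of -1.50. HMMR (chr5:162887517-162918953 on hg19), a hyaluronan receptor that also sits at spindle poles, had the largest fall of all 55 genes. Its values were 692 and 796 with LKB1 siRNA and 3681 and 3250.5 with control siRNA, a change of -2.22 (SE 0.26, limma adjusted p = 0.00352), or 21.5% of control. The controls were several times higher in both lanes. NUSAP1 (chr15:41624892-41673248 on hg19), which bundles spindle microtubules, had 1327 and 1444 with LKB1 siRNA, against 4649.5 and 4295 with control siRNA, a change of -1.69 (SE 0.12, limma adjusted p = 0.00195). NEK2, a kinase that parts the centrosomes, had 260.5 and 503 with LKB1 siRNA, against 949 and 1426 with control siRNA, a change of -1.68 (SE 0.14, limma adjusted p = 0.00195). In NUSAP1 the libraries of a group were close, and in NEK2 the lane 5 libraries were higher in both groups. TPX2, which activates Aurora A on the spindle, was at 36.7% of control, DLGAP5 at 34.1%, GTSE1 at 40.6% and ASPM at 44.3%. CKAP2, a microtubule stabiliser, had the smallest fall, with 1206 and 922 with LKB1 siRNA, against 2139 and 1720.2 with control siRNA, a change of -0.86 (SE 0.12, limma adjusted p = 0.00563).

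Of the 7 chromosome structure genes, 5 fell in U87. TOP2A, the topoisomerase that untangles sister chromatids, had 3886 and 5005 with LKB1 siRNA, against 9371 and 12344 with control siRNA, a change of -1.29 (SE 0.15, limma adjusted p = 0.00358). The condensin subunits NCAPG, NCAPH, SMC4 and SMC2 changed by -1.20, -1.13, -1.11 and -0.72, and all 4 passed the test. CDCA2 (Repo-Man), which brings protein phosphatase 1 to anaphase chromatin, had 2887 and 2364 with LKB1 siRNA, against 2842 and 2517 with control siRNA. The groups overlapped, and the change of -0.03 (SE 0.13, limma adjusted p = 0.892) had a 95% interval from -0.33 to 0.26. The proliferation marker MKI67 had 1981 and 4141 with LKB1 siRNA, against 3443 and 12099 with control siRNA, a change of -1.17 (SE 0.35, limma adjusted p = 0.0750). Within each lane the LKB1 siRNA library was lower, but the lane 5 LKB1 siRNA library exceeded the lane 2 control. CDCA2 and MKI67 passed the test in no comparison.

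MKI67 has the longest transcript of the set (12510 bases), and its 2 U87 control libraries differed by 1.81 log2 units between lanes. The next longest, ASPM (10916 bases) and CENPF (10316 bases), differed by 0.88 and 1.09 in the same direction. Across the 55 genes, log2 transcript length and the lane difference had a Pearson r of 0.54 in T98 LKB1 siRNA libraries, -0.28 in T98 controls, 0.15 in U87 LKB1 siRNA libraries and 0.59 in U87 controls. These points share the same libraries, and the relation is given as a description. Its part in the fold changes of the long genes was not tested.

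**Figure D2:**
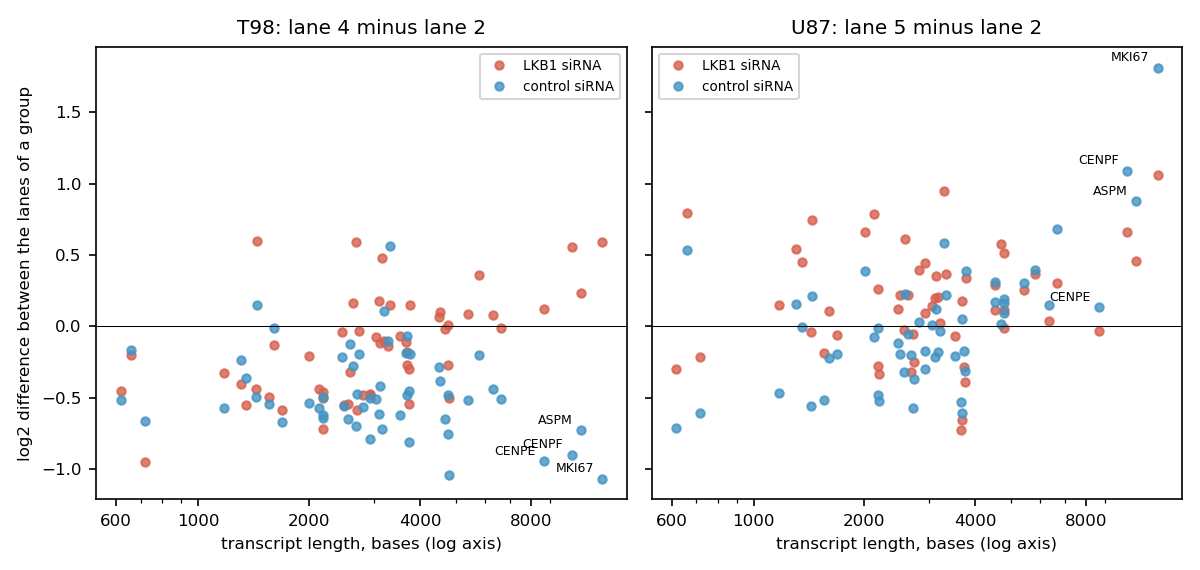
Log2 difference between the lanes of a group (lane 4 minus lane 2 in T98, lane 5 minus lane 2 in U87) against transcript length in bases on a log axis, for the 55 genes with LKB1 siRNA (red) and control siRNA (blue). In the U87 controls the longest transcripts lie highest, with MKI67 at 1.81, and in the T98 controls they lie low, with MKI67 at -1.07.

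Of the 3 cytokinesis genes, 2 fell in U87. ANLN (anillin), the scaffold of the cleavage furrow, had 2597 and 2578 with LKB1 siRNA, against 5456 and 5818 with control siRNA, a change of -1.12 (SE 0.15, limma adjusted p = 0.00474). ECT2, the exchange factor that activates RhoA at the furrow, was at 51.3% of control. PRC1 (chr15:91509268-91537881 on hg19), which bundles the microtubules of the central spindle, had 2163 and 2199 with LKB1 siRNA, against 2872 and 2810.4 with control siRNA. The groups did not overlap, but the change of -0.38 (SE 0.12, limma adjusted p = 0.0831) missed the threshold.

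In T98 cells, 4 of the 55 genes fell and 1 rose, where 7.33% of all genes fell and 8.48% rose. The share that fell is near the background. The median log2 fold change of the 55 genes was -0.23, or 85.5% of control, against 0.017 for all genes, and 46 of the 55 values were below 0. Both LKB1 siRNA libraries were below both controls for 18 of the 55 genes, as for 20.5% of all genes. The fall was uneven between lanes, with a median of -0.34 in lane 2 and -0.09 in lane 4. The difference was below 0 in both lanes for 36 of the 55 genes, as for 34.6% of all genes, and had opposite signs in the lanes for 11, as for 26.5%. CCDC99 was the 1 gene that fell by more than 1 log2 unit in both lanes, as did 1.17% of all genes. The summed share of the 55 genes was 0.787% and 0.768% in the LKB1 siRNA libraries, against 1.04% and 0.797% in the controls, so that the lane 2 control was the library standing apart. Leaving out the lane 4 LKB1 siRNA library or the lane 4 control gave 17 calls each, 16 of them lower, as were 12.0% and 11.9% of all genes. Leaving out the lane 2 LKB1 siRNA library or the lane 2 control gave 2 calls each, 1 of them lower, as were 0.518% and 0.441% of all genes. Without a lane term, with T98 libraries alone, or with any U87 library left out, 0 of the 55 genes were called in T98, and at an unadjusted p under 0.05 with the lane term 16 were lower and 2 higher, as were 16.2% and 18.4% of all genes. Without a lane term 0.028% of all genes were called higher in T98, and with T98 libraries alone 0% of all genes were called.

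The 4 genes that fell in T98 also fell in U87, and 2.16% of all genes fell in both lines. Nearly all genes of the set fell in U87, so almost any of them called lower in T98 would be called in both lines. The count of 4 therefore cannot show a response of the set shared by the lines, and no conclusion is drawn from it. CCDC99 had 903 and 1360.3 with LKB1 siRNA, against 4954 and 3058 with control siRNA, a change of -1.81 (SE 0.26, limma adjusted p = 0.00900). HMMR had 1844 and 2573 with LKB1 siRNA, against 7407 and 4489.5 with control siRNA, a change of -1.40 (SE 0.26, limma adjusted p = 0.0156). In both genes each LKB1 siRNA library was well below each control, and the drop was larger in lane 2. CCDC99 changed by -2.45 in lane 2 and -1.17 in lane 4, and HMMR by -2.01 and -0.80. The fit shares the spread of a gene between the lines, so these SEs and p-values rest on the U87 libraries too. MELK, the maternal embryonic leucine zipper kinase, had 2237 and 2509 with LKB1 siRNA, against 4189 and 3460.5 with control siRNA, a change of -0.68 (SE 0.15, limma adjusted p = 0.0253). BUB1B had 2326 and 2584 with LKB1 siRNA, against 3654 and 3195 with control siRNA, a change of -0.48 (SE 0.13, limma adjusted p = 0.0496), at the edge of the threshold.

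PRC1 was the 1 gene that rose in T98. Its values were 11395 and 10629 with LKB1 siRNA and 5216 and 5625 with control siRNA, a change of 1.02 (SE 0.12, limma adjusted p = 0.00524). Both LKB1 siRNA libraries stood well above both controls, while the 2 U87 LKB1 siRNA libraries stood below their controls. Among the rest, PLK1 changed by 0.35 (limma adjusted p = 0.0938), CENPA by 0.21 and CDCA5 by 0.18, and CENPF by -0.97 (limma adjusted p = 0.0638), DLGAP5 by -0.70 and MKI67 by -0.68. None of these passed the test.

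**Figure D3:**
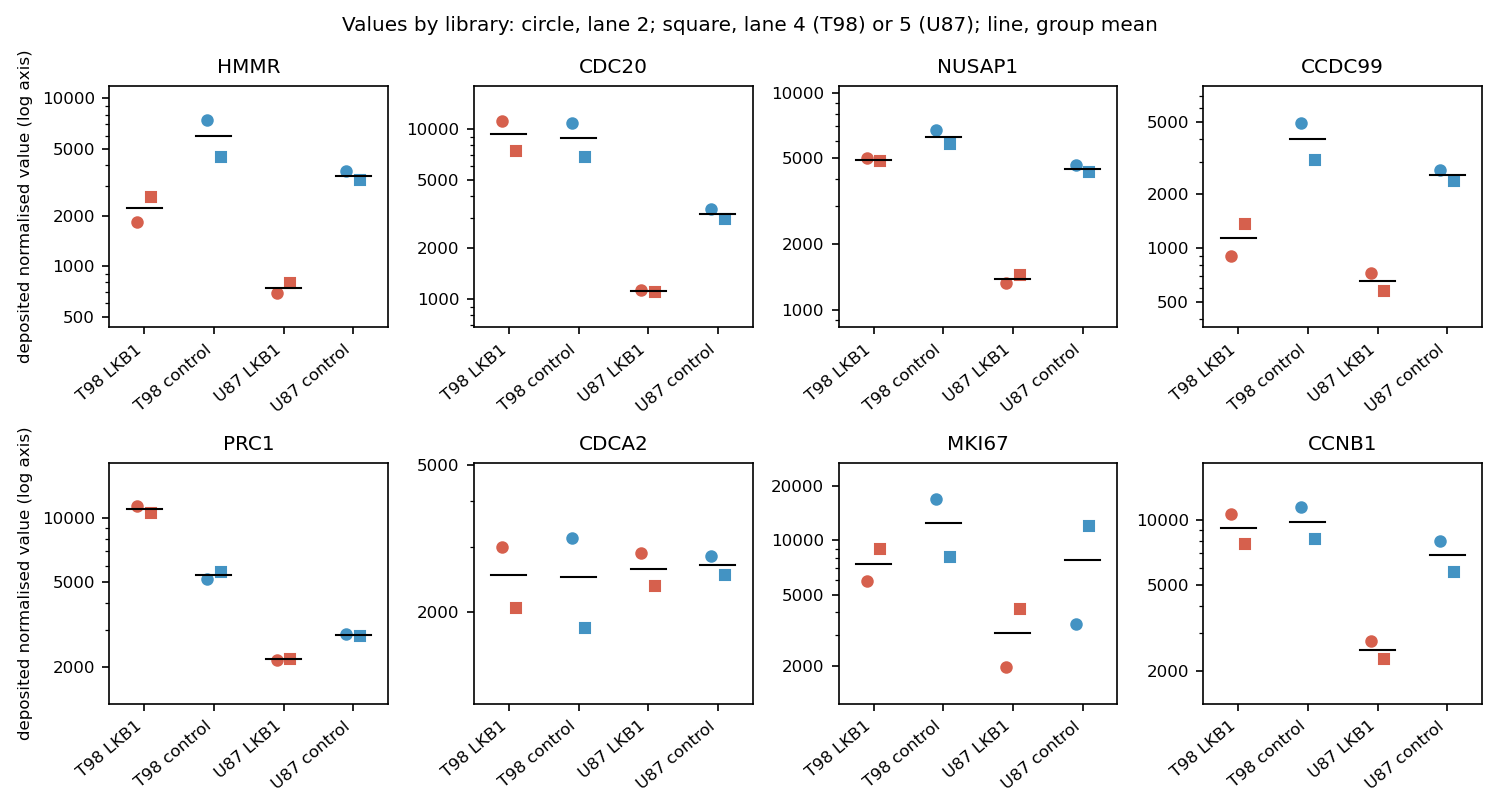
Deposited normalised value of 8 genes in each library on a log axis, with LKB1 siRNA in red, control siRNA in blue, circles for lane 2, squares for lane 4 (T98) or lane 5 (U87) and a line at the group mean. HMMR and CCDC99 are lower with LKB1 siRNA in both lines, CDC20, NUSAP1 and CCNB1 are far lower in U87 while the T98 groups lie close together, PRC1 is higher in T98, and the groups of CDCA2 overlap in both lines.

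The difference between the lines was tested directly, as the T98 effect minus the U87 effect. It was above 0 for all 55 genes, with a median of 1.08 against 0.036 for all genes, and 15 of the 55 were called higher, as were 0.371% of all genes. None was called lower, as were 0.105% of all genes. CDC20 had a fold change of 0.09 in T98 and -1.50 in U87, a difference of 1.59 (SE 0.16, limma adjusted p = 0.0314). PLK1 had 0.35 in T98 and -1.25 in U87, a difference of 1.59 (SE 0.17, limma adjusted p = 0.0349). PRC1 had 1.02 in T98 and -0.38 in U87, a difference of 1.40 (SE 0.17, limma adjusted p = 0.0349). CCNB1 had -0.10 in T98 and -1.43 in U87, a difference of 1.34 (SE 0.17, limma adjusted p = 0.0383). In T98 the 4 effects ran from -0.10 (CCNB1) to 1.02 (PRC1), and in U87 from -1.50 (CDC20) to -0.38 (PRC1). The other 11 were CDK1, CCNA2, MYBL2, BIRC5, CDCA8, CENPA, NDC80, CDCA5, NUSAP1, TPX2 and NEK2, all at a limma adjusted p of 0.0439 to 0.0444.

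The difference of CENPA was the largest of the set, at 1.79, from values of 993 and 731 with LKB1 siRNA and 876 and 623 with control siRNA in T98. CCDC99 had the most similar effects among the genes that fell, with a difference of 0.15 and a 95% interval from -0.72 to 1.02. HMMR had a difference of 0.81 (limma adjusted p = 0.356), with an interval from -0.03 to 1.66. Neither passed the test, which does not show that the effects were equal. At an unadjusted p under 0.05, 47 of the 55 genes differed, as did 8.60% of all genes in that direction, and none differed in the other direction, as did 6.18%. The count of 15 was 0 without a lane term and 0 with no filter on low values, and both fits called 0% of all genes. With a pseudocount of 0.5 it was 4, all higher, where 0.098% of all genes were called higher. The calls did not hold when any U87 library or a T98 lane 2 library was left out.

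**Figure D4:**
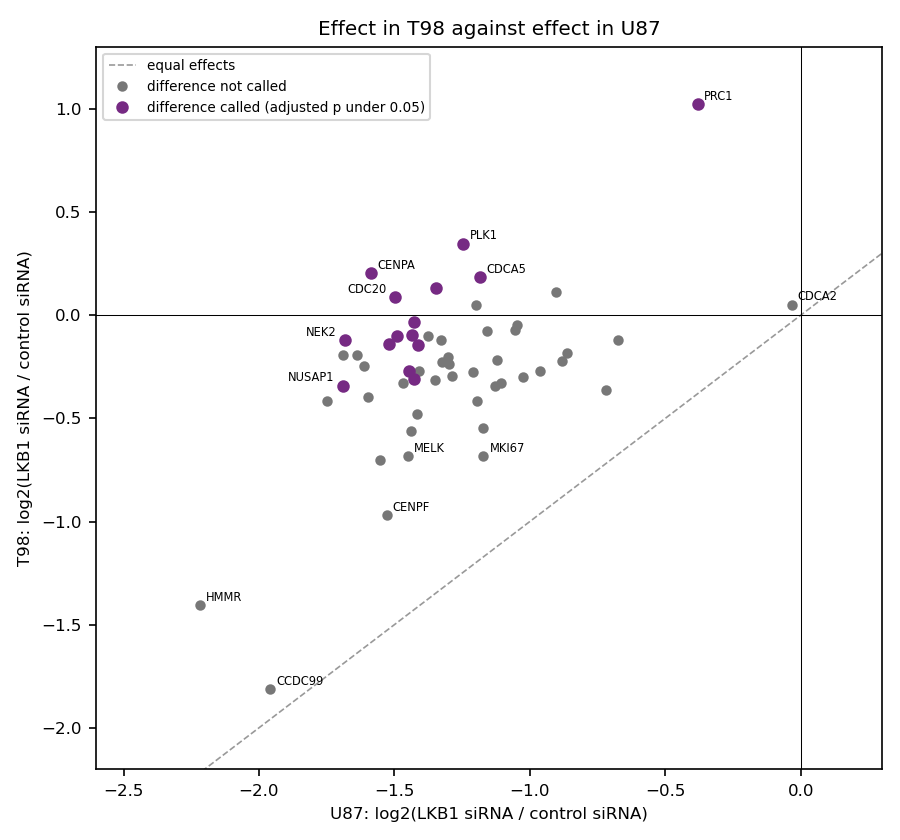
Log2 fold change after LKB1 siRNA in T98 (vertical axis) against U87 (horizontal axis) for the 55 genes, with the 15 called differences in purple and the line of equal effects dashed. Every gene lies above the dashed line, CDCA2 by 0.09 and CCDC99 by 0.15, and CENPA lies farthest from it at 1.79.

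The lines also differed without the knockdown. With control siRNA, 18 of the 55 genes were higher in T98 than in U87 and none was lower, where 18.3% of all genes were higher and 19.5% lower. The share of the 55 was above the background with all libraries, and near it without either of the lane 2 controls. The median log2 difference was 0.60 against -0.009 for all genes, with 50 of the 55 values above 0. CDC25B was highest relative to U87, with 13356 and 12726 in T98 controls, against 3374 and 2215 in U87 controls, a difference of 2.25 (SE 0.28, limma adjusted p = 0.000938). SKA3 had 1711 and 1207 in T98 controls, against 406 and 361 in U87 controls, a difference of 1.90 (SE 0.29, limma adjusted p = 0.00243). CDC20 had 10773 and 6780.4 in T98 controls, against 3366 and 2946 in U87 controls, a difference of 1.44 (SE 0.28, limma adjusted p = 0.00652). In each of these the lines did not overlap. The other 15 were ASPM, GTSE1, TOP2A, ANLN, TTK, CDCA5, CDC25C, PRC1, SMC4, TPX2, CKAP2, NCAPH, BUB1, BUB1B and ECT2, with differences of 0.68 to 1.42.

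CKS2 had the lowest difference, with 4046 and 2829 in T98 controls, against 5994 and 3667 in U87 controls (-0.47, limma adjusted p = 0.261). MYBL2 was next, with 5268 and 4606 in T98 controls, against 7680.5 and 5939 in U87 controls (-0.46, limma adjusted p = 0.108). Neither passed the test. The second lanes differ between the lines (lane 4 and lane 5), so lane and line cannot be told apart there. Without the T98 lane 2 control, 7 of the 55 genes were called, all higher in T98, as were 10.3% of all genes. Without the U87 lane 2 control the count was also 7, all higher, as were 10.9% of all genes. Both counts are near the background. With a lane term for each line, 33 of the 55 were higher and 2 lower in T98, where 32.9% of all genes were higher and 33.6% lower, so that most genes of any kind were called.

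**Figure D5:**
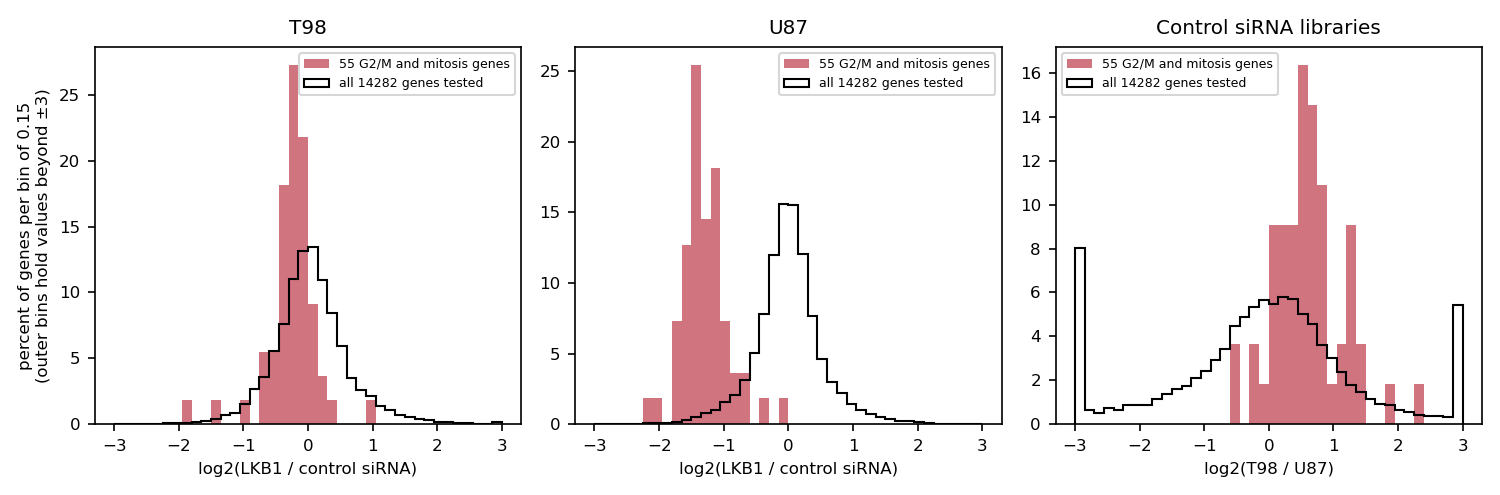
Distribution of log2 fold changes for the 55 genes (red) and all 14282 tested genes (black outline), as the percent of genes per bin of 0.15, after LKB1 siRNA in T98 and U87 and for T98 against U87 controls; values beyond 3 in size are in the outermost bins. The red bars are shifted to a median of -1.35 in U87, lie slightly left of 0 in T98 at -0.23, and lie right of 0 at 0.60 between the controls.

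Other genes of the same processes were taken from 11 lists of 125 symbols, of which 119 were tested. In U87, 49 of the 119 fell and 1 rose (median -0.44), and in T98, 12 fell and 4 rose (median -0.15). Of all genes, 5.91% fell and 5.29% rose in U87, and 7.33% fell and 8.48% rose in T98, so the T98 counts are near the background. The difference was called higher for 6 of them, namely UBE2S, FBXO5, ZWINT, PKMYT1, TACC3 and SPAG5, and lower for 0. Of all genes, 0.371% were called higher and 0.105% lower for the difference. Without a lane term, or with no filter on low values, no gene of any kind was called for it.

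Of 25 other centromere and kinetochore genes, 19 fell in U87 and 2 in T98. HJURP, the chaperone that loads CENPA, changed by -1.66 (SE 0.14, limma adjusted p = 0.00195) in U87. MLF1IP (CENP-U) changed by -1.56 (SE 0.16, limma adjusted p = 0.00250) in U87. In T98, CENPK changed by -0.54 (SE 0.13, limma adjusted p = 0.0379) and DSN1, of the MIS12 complex, by -0.49 (SE 0.13, limma adjusted p = 0.0463). Of 6 other spindle checkpoint genes, TRIP13, which recycles MAD2, changed by -0.91 (SE 0.14, limma adjusted p = 0.00777) and KNTC1 (ROD) by -0.90 (SE 0.20, limma adjusted p = 0.0317) in U87, and none passed in T98. Of 4 other genes of the chromosomal passenger complex and haspin, INCENP changed by -0.84 (SE 0.14, limma adjusted p = 0.00931) and haspin (GSG2) by -1.18 (SE 0.16, limma adjusted p = 0.00555) in U87.

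Of 4 other condensin genes, 3 fell in U87, among them NCAPD2 (-1.10, SE 0.13, limma adjusted p = 0.00352) and NCAPG2 (-0.90, SE 0.12, limma adjusted p = 0.00440). Of 12 cohesin genes, 3 fell in U87, and the list median was -0.12. The acetyltransferase ESCO2 changed by -1.53 (SE 0.15, limma adjusted p = 0.00223) and RAD21, the subunit that separase cuts, by -0.78 (SE 0.13, limma adjusted p = 0.0117). No condensin or cohesin gene of these lists passed in T98.

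Of 17 genes of the anaphase-promoting complex and its partners, 2 fell in U87 and none rose. These were FBXO5 (EMI1), an inhibitor of the complex, at -1.08 (SE 0.13, limma adjusted p = 0.00380), and UBE2S, which extends ubiquitin chains, at -0.65 (SE 0.12, limma adjusted p = 0.0170). In T98, UBE2S rose, with 19186 and 8459.6 with LKB1 siRNA, against 12036 and 6355 with control siRNA, a change of 0.54 (SE 0.12, limma adjusted p = 0.0283). The groups of UBE2S overlapped, but within each lane the LKB1 siRNA library was the higher one. ANAPC13 also rose in T98 (0.48, SE 0.13, limma adjusted p = 0.0490), and CDC27 fell (-0.51, SE 0.14, limma adjusted p = 0.0454). No core subunit of the complex was called in U87, where the list median was -0.12.

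Of 10 regulators of CDK phosphorylation and mitotic exit, 5 fell in U87 and 1 rose. CDC25A, the phosphatase that activates CDKs, changed by -1.42 (SE 0.12, limma adjusted p = 0.00195) and PKMYT1, which phosphorylates CDK1, by -1.31 (SE 0.15, limma adjusted p = 0.00346). The exit phosphatase CDC14A rose in both lines, by 1.09 (SE 0.22, limma adjusted p = 0.0194) in T98 and 1.07 (SE 0.22, limma adjusted p = 0.0202) in U87. Its values were 408 and 367 in T98 LKB1 siRNA libraries, against 181 and 180.4 in T98 controls, and 311 and 256 in U87 LKB1 siRNA libraries, against 116 and 154 in U87 controls. CDC14B fell in both, with changes of -0.84 (SE 0.13, limma adjusted p = 0.0105) in T98 and -0.51 (SE 0.13, limma adjusted p = 0.0465) in U87.

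Of 17 centrosome and spindle pole genes, 8 fell in U87 and 2 in T98. CEP55, an abscission factor that leaves the centrosome in mitosis, changed by -0.68 (SE 0.14, limma adjusted p = 0.0228) in T98 and -1.72 (SE 0.14, limma adjusted p = 0.00195) in U87. TACC3, which stabilises spindle fibres, changed by -1.39 (SE 0.13, limma adjusted p = 0.00195) in U87, and the centrosomal scaffold CDK5RAP2 by -0.69 (SE 0.12, limma adjusted p = 0.0144) in T98. Of 6 other cytokinesis genes, RACGAP1, the partner of ECT2, changed by -0.53 (SE 0.12, limma adjusted p = 0.0309) in T98 and -1.32 (SE 0.12, limma adjusted p = 0.00199) in U87. ARHGAP11A changed by -1.14 (SE 0.15, limma adjusted p = 0.00435) in U87 and PDCD6IP (ALIX) by -0.52 (SE 0.13, limma adjusted p = 0.0382) in T98.

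Of 11 DREAM and MuvB genes, 2 fell in U87, the MuvB subunit LIN9 (-1.09, SE 0.18, limma adjusted p = 0.0112) and the pocket protein RBL1 (-0.62, SE 0.15, limma adjusted p = 0.0431). In T98, TFDP2, a partner of E2F factors (-0.81, SE 0.17, limma adjusted p = 0.0216) and the DREAM subunit RBL2 (-0.56, SE 0.15, limma adjusted p = 0.0408) fell, and E2F5, an E2F factor bound to pocket proteins, rose (0.95, SE 0.20, limma adjusted p = 0.0230). Of 7 p53 targets that act on G2, GADD45A fell in both lines, with changes of -0.57 (SE 0.14, limma adjusted p = 0.0357) in T98 and -0.56 (SE 0.14, limma adjusted p = 0.0448) in U87, and MDM2 fell in T98 (-0.96, SE 0.18, limma adjusted p = 0.0180). CDKN1A (p21) changed by -0.15 in T98 and 0.36 in U87, and neither value passed the test. Between the controls, 5 of these 7 genes were lower in T98, where 19.5% of all genes were lower and 18.3% higher. The list median was -2.10, and CDKN1A had the lowest value (-3.81, SE 0.37, limma adjusted p = 0.000321).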

How the data were processed

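RNA of 8 libraries (4 groups of 2) was sequenced after TruSeq V2 library preparation, which does not mark strand, per the labels' protocols. The submitters' processing notes name TopHat2 2.0.8b, the builds hg19 and GRCh37, and edgeR as the authors' tools. No source used here names the read counter. The authors deposited 1 table with a normalised signal per RefSeq transcript (18815 rows) and library. These signal values, as the authors deposited them, match edgeR pseudo-counts at a common dispersion of 0.068. Inverting that function gave whole reads, within 0.05 read, for at least 99.76% of values in each library. The recovered reads served only to give depth.

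Groups came from the labels and lanes from the column headers, and a symbol with several rows kept the one with the highest mean. A gene was tested where its value reached 10 in at least 2 libraries (14282 genes). The log2(value + 1) values were fitted by limma-trend in limma 3.58.1 under R 4.3.3, with all 8 libraries, a mean per group and a lane term for each line, 2 residual degrees of freedom, two-sided, Benjamini-Hochberg adjusted over all tested genes. The spread of each gene was shared by both lines, so its SE was the same in T98 and U87. T98 and U87 controls were compared without a lane term. Lane pairs the libraries of a line: the gene-by-gene lane difference had a correlation of 0.72 between the T98 groups and 0.81 between the U87 groups, and of 0.12 to 0.18 between lines. The procedure was run on simulated counts with a lower dispersion than these data and the same change in both lines. That run cannot show how reliable the calls are here, nor how well differences between the lines are found. Alternatives were the lane term, the pseudocount, the filter, median-centred libraries, 1 line or the controls alone, and leaving out each library.

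The genes, their roles and the 11 lists were chosen with earlier results of these data known. Named with values were, in each role, the smallest and largest U87 fold change, genes called in T98, up to 2 genes with the smallest adjusted p for the difference, and genes called nowhere. In each list, up to 2 risen and 2 fallen genes with the smallest adjusted p per line were named. Other genes were given by ranges or named after their values were seen. Coordinates of genes are hg19 and count from 1. Promoter sequences are RefSeq on GRCh38.p14, matched by symbol or synonym.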

Additional observations from a re-analysis of the deposited data

Results flagged for a closer look

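For 15 of the 55 genes, the fold change after LKB1 siRNA differed between T98 and U87 (limma adjusted p under 0.05). This was a direct test of the difference (T98 effect minus U87 effect), in which 0.371% of all genes were called higher. The count was 0 without a lane term or with no filter on low values, and 4 with a pseudocount of 0.5. The calls also did not hold when any U87 library or a T98 lane 2 library was left out. Among genes of mitotic entry, the difference was 1.59 for PLK1, 1.40 for CDK1, 1.38 for CCNA2 and 1.34 for CCNB1, and for the transcription factor MYBL2 it was 1.12. In the chromosomal passenger complex it was 1.48 for BIRC5 and 1.39 for CDCA8. At the centromere and kinetochore it was 1.79 for CENPA and 1.27 for NDC80. Among genes of anaphase and cohesion it was 1.59 for CDC20 and 1.37 for CDCA5. On the spindle it was 1.56 for NEK2, 1.35 for NUSAP1 and 1.18 for TPX2, and for the cytokinesis gene PRC1 it was 1.40. In all 15 the T98 effect was the higher one. PRC1 differed from the other 14 in that it was called in T98, as higher, and not in U87.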

How the results depend on the processing

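The lane term, which acts as a replicate block, decided most calls. With no lane term (no replicate block), the fold changes stayed the same, and the genes called fell to 0 in T98 (5 with the term), 1 in U87 (52 with it) and 0 for the difference (15 with it). STK11 in T98 was then still at -2.17, with a limma adjusted p of 0.0824. With a lane term for each line (replicate block), the comparison of the controls called 35 genes, 33 higher and 2 lower in T98, against 18 without it, but it called 66.4% of all genes. With T98 libraries alone, 0 of the 55 genes and 0% of all genes were called in T98, and STK11 was at -2.17 (limma adjusted p = 0.124). With U87 libraries alone, 54 of the 55 genes were called lower in U87, as were 9.26% of all genes. The difference was called for 4 genes with a pseudocount of 0.5, as for 0.147% of all genes in either direction. It was called for 0 with no filter, as for 0% of all genes, and for 4 with median-centred libraries, as for 0.154% in either direction. Median centring also turned CDCA2 in U87 to 0.0188. The cause of these changes was not tested.

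Leaving out each library in turn gave 0 to 17 calls in T98, 0 to 54 in U87, 0 to 15 for the difference and 7 to 20 between the controls. The same fits called 0% to 24.3% of all genes in T98, 0% to 17.0% in U87, 0% to 1.71% for the difference and 22.1% to 37.6% between the controls. Calls went to 0 in both lines when a U87 library was left out, because the spread then rests on T98 alone. The U87 medians were then -1.24 and -1.50. A lone library is assumed to vary like the other groups. STK11 ranged from -2.55 to -1.79 in T98 and from -2.76 to -2.40 in U87, and was not past the threshold in either line without a U87 library. CDCA2 ranged from -0.0825 to 0.186 in T98 and from -0.0904 to 0.0226 in U87, and MKI67 in T98 from -1.51 to 0.15. The planned edgeR and DESeq2 tests on recovered reads were not run, since the deposited values are not a linear scaling of reads and 2 of the 8 columns did not pass the check for whole reads at a fixed step. All 55 genes had 82 or more reads in every library, and the number of libraries per group (2) limits the precision.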

Other observations

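Per kilobase of transcript, the level of the deposited value was highest for CKS2, PTTG1 and CDC20 in T98 controls (5581, 5395 and 5209). CKS2 (7842) and PTTG1 (4577) were also highest in U87 controls, where CDC20 (1873) ranked 8 of 55. With LKB1 siRNA, CDC20 was at 5507 per kilobase in T98, rank 1, and at 661 in U87, rank 13. SGOL1 had the lowest level per kilobase in all 4 groups, with 148 in T98 LKB1 siRNA libraries, 187 in T98 controls, 48.3 in U87 LKB1 siRNA libraries and 122 in U87 controls. In U87, the median fold change was -1.41 for the 31 genes with a TTTGAA in the promoter searched and -1.30 for the 17 without one.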
